A study of Mus musculus with 12 samples.

Results

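The oogenesins are a small family of mouse proteins made in oocytes, and *Oog1*, *Oog2*, *Oog3* and *Oog4* are the 4 genes that carry the family name. They were taken by gene symbol, as the 4 rows of these names among the 24259 genes of the expression table. The study asked how the RNA-binding protein LSM14B, which is found on stored mRNA of the oocyte, affects translation. RNA of oocytes at the germinal vesicle (GV) stage, the stage of arrest before meiosis resumes, was separated on sucrose gradients and sequenced. Heavy fractions 11 to 28, which hold mRNA loaded with ribosomes, were pooled as polysomes, and light fractions 1 to 10 were pooled as RNP (ribonucleoprotein particles, mRNA with few or no ribosomes). The 12 libraries comprised 3 WT polysome, 3 KO polysome, 3 WT RNP and 3 KO RNP libraries.

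KO females were homozygous for *Lsm14b* tm1a(KOMP)Mbp, a reporter-tagged insertion carried in the germ line, so it is present in every cell type. Both genotypes were on a C57BL/6J background and 3 weeks old. All were given 5 IU of PMSG, a gonadotropin that makes follicles grow, and oocytes were collected 46 h later. About 1500 oocytes were pooled per lysate, which was made with cycloheximide, an inhibitor that holds ribosomes on mRNA, and the RNA was amplified before sequencing. The sources used here name different top sucrose concentrations for the gradients. The labels do not say whether replicates came from separate animals, so the p-values measure the spread between these libraries, which may be technical.

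Oogenesins belong to the PRAME-like proteins, whose leucine-rich repeats fold into a curved surface that binds other proteins. The family has many copies in the mouse genome, several of them in clusters, and is known for expression in germ cells and early embryos. Human PRAME is a substrate receptor of a CUL2 ubiquitin ligase, and mouse OOG1 has been described as a partner of Ras and of RALGDS.

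*Oog2*, *Oog3* and *Oog4* lie on chromosome 4 and *Oog1* lies on chromosome 12 (GRCm38, GENCODE M21). *Oog2* spans chr4:144190719-144196934 on the plus strand, with 5 exons and a transcript of 1917 bases. Its neighbour *Oog3* spans chr4:144157557-144162663 on the minus strand, with 4 exons and 1865 bases. *Oog4* spans chr4:143437164-143450324 on the minus strand, with 5 exons and 1981 bases. *Oog1* spans chr12:87602688-87608850 on the plus strand, with 4 exons and 1801 bases. Over whole transcripts the members were 70.5% (*Oog2* and *Oog4*) to 78.7% (*Oog1* and *Oog3*) identical.

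The 120 bases before the transcription start are printed for each member because all 4 share the same arrangement of motifs there (RefSeq, GRCm38.p6). Capitals mark the E-box CAGCTG and the sequence TATATA, which resembles the core promoter element bound by TBP, both searched on both strands. *Oog1* is at chr12:87602545-87602664 on the plus strand, *Oog2* at chr4:144190597-144190716 on the plus strand, *Oog3* at chr4:144162652-144162771 on the minus strand and *Oog4* at chr4:143450325-143450444 on the minus strand.
Oog1: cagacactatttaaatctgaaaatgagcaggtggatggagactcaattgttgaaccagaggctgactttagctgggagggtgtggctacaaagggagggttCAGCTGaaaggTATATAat
Oog2: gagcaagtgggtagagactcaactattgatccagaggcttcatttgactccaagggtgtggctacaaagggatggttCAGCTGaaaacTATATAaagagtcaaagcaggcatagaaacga
Oog3: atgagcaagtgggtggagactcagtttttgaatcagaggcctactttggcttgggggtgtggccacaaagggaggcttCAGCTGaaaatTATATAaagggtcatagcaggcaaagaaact
Oog4: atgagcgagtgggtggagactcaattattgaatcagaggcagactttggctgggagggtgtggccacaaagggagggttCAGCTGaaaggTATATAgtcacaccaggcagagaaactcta

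TATATA began 32, 31 and 30 bases before the start in *Oog2*, *Oog3* and *Oog4*, and CAGCTG began 43, 42 and 41 bases before it. In *Oog1* they began 8 and 19 bases before the RefSeq start. The GENCODE start lies 23 bases further into the gene for *Oog1* and 2 for *Oog2*, at the same base for *Oog4* and 12 bases further upstream for *Oog3*, so that 12 bases of the *Oog3* window lie inside its GENCODE transcript. TATATA begins 31, 34, 19 and 30 bases before the GENCODE start of *Oog1*, *Oog2*, *Oog3* and *Oog4*. Of all 32851 promoters in the table, 6.76% held CAGCTG in the same window, 2.51% held TATATA and 47 (0.143%) held both. The motifs and the window were chosen after these related sequences were seen. These shares are thus no test of how unusual the members are. TAATTG, a homeodomain-type motif, was present in 1 of the 4 windows, that of *Oog4*, and in 3.14% of all promoters. TAATTA was in 0 of the 4 windows and in 2.09% of all promoters. The windows of *Oog3* and *Oog4* were 83.9% identical and those of *Oog2* and *Oog3* 80.0%. The *Oog1* window, which ends 23 bases before its GENCODE start, was 56.8% to 64.1% identical to those of the other members. Over the 90 bases that end with TATATA, a stretch set after the sequences were seen, *Oog1* was 81.5% (*Oog2*) to 91.2% (*Oog4*) identical to the other members, which were 79.8% to 87.9% identical to each other.

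The targeted gene was read as a check of the labels. *Lsm14b* had 11.3, 15.3 and 13.2 FPKM (fragments per kilobase of transcript, scaled for library depth) in WT polysomes. In KO polysomes it had 0.260, 0 and 0.0876 FPKM. It had 34.6, 29.3 and 27.4 FPKM in WT RNP and 0.893, 0.0627 and 0 FPKM in KO RNP. Every KO library was below every WT library of its pool. Its paralog *Lsm14a* had a KO against WT change of -0.10 in polysomes and -0.14 in RNP on the log2 scale, and neither was called by limma (adjusted p = 0.864 and 0.406). The polysome change of *Lsm14a* was 0.01 (adjusted p = 0.993 from limma) without KO polysome replicate 2, the library described below.

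The label oocyte was read from marker genes. All 12 oocyte markers had a mean of at least 1 FPKM, led by *Gdf9*, a growth factor secreted by the oocyte, at a mean of 10019 FPKM. Of 12 granulosa and cumulus markers, 6 had a mean of at least 1 FPKM, with *Cyp19a1*, the aromatase gene, the most abundant at 28.9 FPKM. The defining granulosa genes *Foxl2* and *Amh* had means of 0.0845 and 0.272 FPKM. The summed FPKM of the 12 granulosa markers ranged from 28.2 to 76.5 for WT polysomes and 81.2 to 103 for KO polysomes. For RNP this sum ranged from 31.4 to 37.2 in WT libraries and 42.8 to 65.7 in KO libraries. None of 6 theca and stroma markers reached a mean of 1 FPKM, and *Star* was listed at 0 in all 12 libraries. *Ptprc*, *Adgre1* and *Cd3e* of 5 immune markers, and the haemoglobin genes *Hba-a1* and *Hbb-b1*, were listed at 0 throughout. *Cd68* had a mean of 1.90 FPKM and the endothelial gene *Pecam1* one of 25.0 FPKM.

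KO polysome replicate 2 stood apart from the other 11 libraries in 1 gene, which spans 80 bases. A single small RNA gene, *Mir300*, was listed there at 170809 FPKM, and the 10 most abundant genes took 34.7% of its summed FPKM, against 11.6% to 14.7% in each other library. Across 10949 genes the KO polysome libraries correlated with each other at 0.933 to 0.936. Replicate 1, not replicate 2, had the lowest value of the group for *Oog2*, *Oog3* and *Oog4*. Because of *Mir300*, the tests of the oogenesins that rest on KO polysomes are also given without replicate 2. So are most other counts and changes that rest on KO polysomes. These fits use the other 2 KO polysome libraries.

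*Oog2*, *Oog3* and *Oog4* were among the most abundant genes in every library, and *Oog1* was close to absent from the table. *Oog3* ranged from 810.0 to 1338 FPKM over the 12 libraries, *Oog4* from 461 to 1449.6 FPKM and *Oog2* from 196 to 728 FPKM. By FPKM within a library, *Oog3* ranked between 31 and 71, *Oog4* between 39 and 118 and *Oog2* between 96 and 368. *Oog1* was listed at 0 in 8 libraries and reached 1 FPKM in 2. Together the 4 rows made up 0.383% to 0.608% of the summed FPKM of a library.

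**Figure D1:**
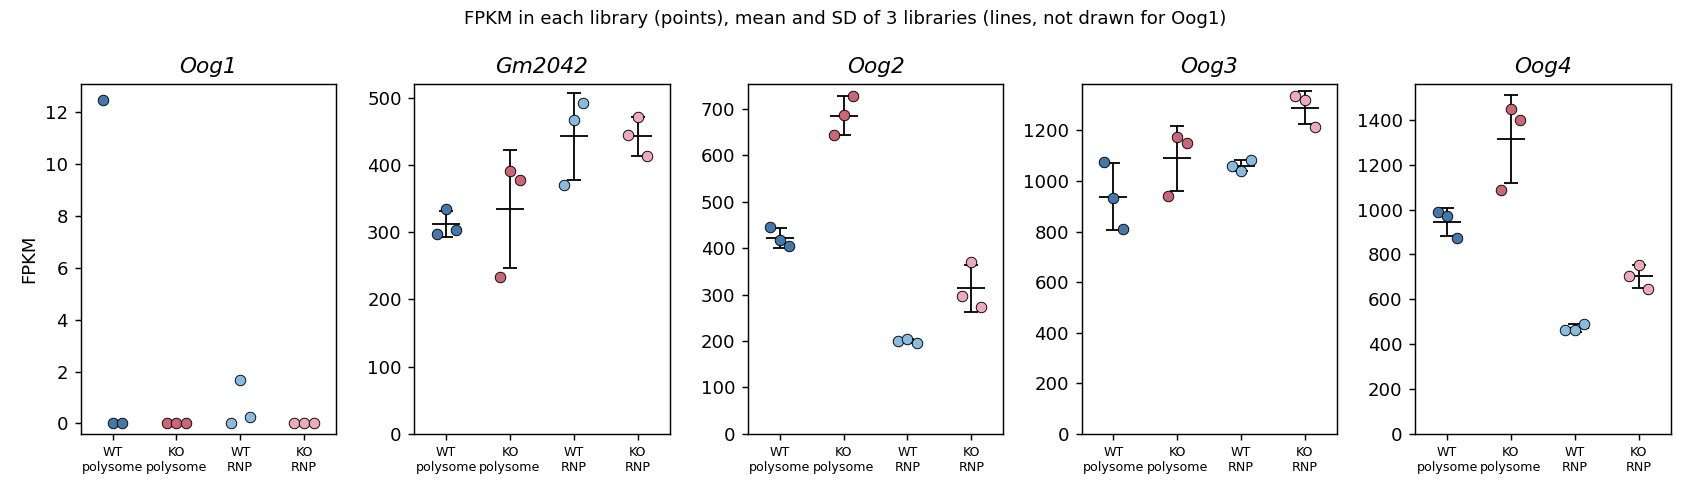
FPKM of *Oog1*, its near-identical copy *Gm2042*, *Oog2*, *Oog3* and *Oog4* in each library of the 4 groups, with points for libraries and lines for the mean and SD of 3 libraries (not drawn for *Oog1*, which is mostly listed at 0). Each panel has its own FPKM axis. The KO points of *Oog2* and *Oog4* lie above the WT points of the same pool, and *Oog1* stays at or under 12.5 FPKM while *Gm2042* lies between 233 and 493 FPKM.

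*Oog1* had 12.5 FPKM in WT polysome replicate 1 and was listed at 0 in WT polysome replicates 2 and 3. It was at 1.66 and 0.247 FPKM in WT RNP replicates 2 and 3, at 0.00967 FPKM in KO polysome replicate 1 and at 0 in the remaining libraries. It thus reached 1 FPKM in 2 libraries, 1 of each WT pool, and the groups overlapped. *Oog1* did not pass the filter of 1 FPKM in at least 3 libraries in any of the 5 comparisons. With the filter dropped, limma gave it adjusted p values from 0.389 to 0.971.

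A second gene of chromosome 12 holds nearly the same sequence as *Oog1*. *Gm2042*, looked up after the *Oog1* values were seen, spans chr12:87954080-87960683 on the plus strand, and the table gives both genes the same locus, of 358019 bases. Their coding sequences differ at 1 of 1488 aligned bases, and their 120-base promoter windows are identical. Of the 1652 stretches of 150 bases, the read length, in the *Oog1* transcript, 1461 (88.4%) also occur in transcripts of *Gm2042* and 312 in those of *Gm10436*. The 60 coding bases that end at the differing base are printed, with that base in capitals (RefSeq and GENCODE M21, GRCm38, plus strand). They lie at chr12:87608321-87608380 in *Oog1* and at chr12:87960152-87960211 in *Gm2042*.
Oog1: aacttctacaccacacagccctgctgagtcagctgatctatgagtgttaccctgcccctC
Gm2042: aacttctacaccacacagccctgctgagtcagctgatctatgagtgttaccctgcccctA

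*Gm2042* had 298, 335 and 304 FPKM in WT polysomes and 233, 392 and 378 FPKM in KO polysomes. It had 370.0, 467 and 493 FPKM in WT RNP and 444, 471 and 413 FPKM in KO RNP. The genotypes overlapped in both pools, and every RNP library lay above every polysome library of its genotype. How the deposited values divide reads between *Oog1* and *Gm2042* is uncertain, so the level of *Oog1* itself is uncertain too. The rows were therefore also summed, a step chosen after seeing the data. The summed row changed by 0.04 (standard error, SE, 0.19) between KO and WT polysomes and by 0.01 (0.11) in RNP, and limma called neither (adjusted p = 0.912 and 0.980). In WT it was lower in polysomes than in RNP, with a change of -0.48 (SE 0.13, limma adjusted p = 0.0425), and 5 of the 6 fits that leave out 1 library took the call away (adjusted p up to 0.145), as did dropping the filter or the intensity trend (adjusted p from limma 0.0961 and 0.235). Its polysome against RNP change in the KO was -0.44 (SE 0.18, limma adjusted p = 0.0996), and was called with quantile normalization (-0.57, adjusted p = 0.0203 from limma). Without KO polysome replicate 2 the summed row had -0.57 (SE 0.19, limma adjusted p = 0.0534) in that comparison and -0.09 (SE 0.21, limma adjusted p = 0.857) between KO and WT polysomes. Without KO polysome replicate 1 these changes were -0.20 (SE 0.08, limma adjusted p = 0.104) and 0.28 (SE 0.12, limma adjusted p = 0.216).

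Sequence sharing was smaller for the abundant members. Of the stretches of 150 bases, 250 of 1768 (14.1%) in *Oog2* also occur in *Gm13084*, 140 of 1716 (8.16%) in *Oog3* also occur in *Gm4350*, and 0 of 1832 in *Oog4* occur in another gene. The values of *Oog2* and *Oog3* are therefore uncertain, since the handling of shared reads is not given in the sources used here. These shares count exact matches only and do not bound the error. *Gm13084* was more abundant than *Oog2*, with means of 1085 against 200 FPKM in WT RNP and 3694 against 686 FPKM in KO polysomes.

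Sharing was also seen for RNA sequences bound by LSM14B, as mapped by LACE-seq, a method that crosslinks a protein to RNA and sequences the bound pieces. Only the listed sequences are used here, to show which transcripts hold them, and capitals mark the whole listed piece. The list of each gene was held here only in part, and the pieces counted are those held in full. Of the 4 such pieces listed under *Oog1*, those of 60 and 280 bases occur in transcripts of both *Oog1* and *Gm2042*, and that of 60 bases in *Gm10436* as well. The pair of 20 bases match a *Gm2042* transcript outside its coding sequence. The upstream piece lies at chr12:87955437-87955456 and the downstream piece at chr12:87955537-87955556 on the plus strand. Neither was found in a transcript of *Oog1*. Introns were not searched, so *Oog1* may hold them outside its transcripts. The downstream piece also occurs in transcripts of *Gm10436* and *C87977*, again outside coding sequence. Of the 5 such pieces listed under *Oog3*, 2 of 60 bases occur in transcripts of *Oog3* alone, those of 20 and 140 bases also occur in *Gm4350*, and 1 of 100 bases was found in no GENCODE M21 transcript. The piece of 20 bases lies in the coding sequence of *Oog3* at chr4:144158138-144158157 on the minus strand.
Upstream: CCTATATGAACACCACCAGC
Downstream: AGGCACATGTATAGCAGAGG
Oog3: GTTTTTGGGAAAATGAACTC

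The polysome pool of WT oocytes was set against the RNP pool to ask which oogenesin mRNAs sat with ribosomes. *Oog2* and *Oog4* were about 2-fold higher in polysomes than in RNP, while *Oog3* lay at similar levels in both. *Oog2* had 445, 417 and 404 FPKM in WT polysomes and 200.005, 205 and 196 FPKM in WT RNP. *Oog4* had 987, 969.8 and 873 FPKM in WT polysomes and 464, 461 and 491 FPKM in WT RNP. *Oog3* had 1073, 931 and 810.0 FPKM in WT polysomes and 1058, 1041 and 1085 FPKM in WT RNP. All 3 polysome libraries were above all 3 RNP libraries for *Oog2* and *Oog4*, and the pools overlapped for *Oog3*, whose WT polysome replicate 1 lay among the RNP values.

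The ratio of group means, polysome over RNP, was 2.11 for *Oog2*, 2.00 for *Oog4* and 0.884 for *Oog3*. On the log2(FPKM + 1) scale used for all tests, *Oog2* was higher in polysomes by 1.07 (SE 0.11, limma adjusted p = 0.000400). *Oog4* was higher by 1.00 (SE 0.09, limma adjusted p = 0.000294). The change of *Oog3* was -0.19 (SE 0.11), with a 95% interval from -0.44 to 0.06, and was not called by limma (adjusted p = 0.304), except with quantile normalization (-0.53, adjusted p = 0.00929 from limma). It ran from -0.29 to -0.085 with 1 library left out, not called. Thus 2 of the 3 oogenesins tested were called, where 14.7% of the 9574 genes tested were called. The pools did not overlap for 2 of the 3, against 34.6% of all genes tested. An exact two-sided permutation test of 3 against 3 libraries cannot go below p = 0.1, and *Oog2* and *Oog4* each gave that value. Since FPKM is relative to each library, these values rank transcripts within a pool and do not give the share of molecules on ribosomes.

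**Figure D2:**
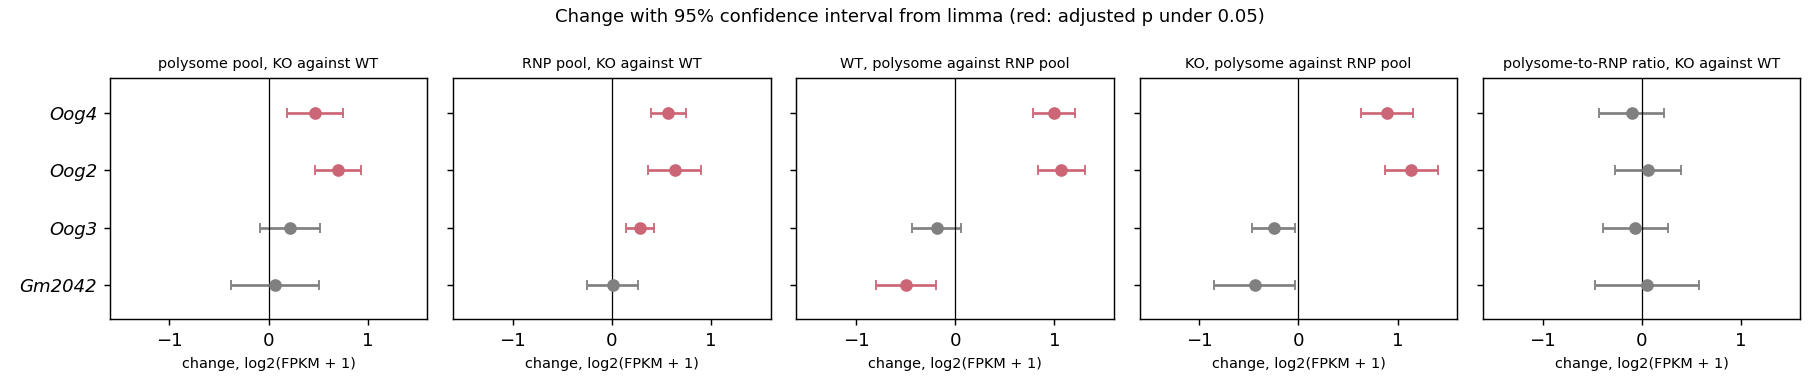
Change of *Oog4*, *Oog2*, *Oog3* and *Gm2042* in the 5 comparisons on the log2(FPKM + 1) scale, with points for limma's estimate, bars for its 95% interval and red where the adjusted p was under 0.05. *Oog2* and *Oog4* lie near 1 in both comparisons of the pools and between 0.47 and 0.70 in both comparisons of the genotypes, and no gene is red for the polysome-to-RNP ratio.

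Loss of LSM14B was read in polysomes by setting KO against WT libraries. By the ratio of group means *Oog2* rose 1.62-fold and *Oog4* 1.39-fold, and *Oog3* was not called. The call of *Oog4* was lost in most fits that leave out 1 library, as given below. In KO polysomes *Oog2* had 643, 686 and 728 FPKM, with a mean of 686 ± 42.4 against 422 ± 21.0 in WT (SD, n = 3). In KO polysomes *Oog4* had 1088, 1449.6 and 1399.9 FPKM, with a mean of 1312 ± 196 against 943 ± 61.5 in WT (SD, n = 3). In KO polysomes *Oog3* had 942, 1175 and 1149 FPKM, with a mean of 1089 ± 128 against 938 ± 132 in WT (SD, n = 3). All KO libraries were above all WT libraries for *Oog2* and *Oog4*, although KO replicate 1 of *Oog4* was closer to WT than to the other KO libraries. For *Oog3* the genotypes overlapped, with KO replicate 1 inside the WT range.

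*Oog2* changed by 0.70 (SE 0.10, limma adjusted p = 0.00565) and *Oog4* by 0.47 (SE 0.13, limma adjusted p = 0.0494). *Oog3* changed by 0.22 (SE 0.13), with a 95% interval from -0.09 to 0.52 (adjusted p = 0.341 from limma). Its change ran from 0.12 to 0.32 with 1 library left out, not called. The 2 oogenesins called, of 3 tested, compare with 10.4% of the 9536 genes tested, and the genotypes did not overlap for 2 of the 3, against 31.7% of all genes. The ratios of group means without KO polysome replicate 2 were 1.62 for *Oog2* and 1.32 for *Oog4*. *Oog2* then changed by 0.70 (adjusted p = 0.0301 from limma), *Oog3* by 0.16 (adjusted p = 0.622 from limma) and *Oog4* by 0.39 (adjusted p = 0.178 from limma), which ended the call of *Oog4*. That left 1 of the 3 oogenesins called, where 4.38% of the 9077 genes then tested were called, and the genotypes did not overlap for 2 of the 3, against 38.6% of all genes. The call of *Oog4* was lost in 5 of the 6 fits that leave out 1 library, namely each WT polysome replicate and KO replicates 2 and 3, with changes from 0.39 to 0.60 over all 6 and adjusted p from limma up to 0.178. The call of *Oog2* held in those 6 fits, with changes from 0.65 to 0.74, and was lost without the intensity trend of limma (adjusted p = 0.105). *Oog4* was also not called with a pseudocount of 0.1, with no filter on low values or with no intensity trend (limma adjusted p = 0.0639, 0.132 and 0.269). Without the trend 0 of the 3 oogenesins and 5.33% of all genes were called.

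In polysomes, 3 of the 7 granulosa markers tested, *Inha*, *Inhba* and *Fshr*, were also called higher in the KO by limma and 0 lower, and their part in the result was not tested. *Inhba* and *Fshr* met the filter through KO libraries alone, so this count is not set against the share of all genes. With no filter *Inhba* was called (adjusted p = 0.0383 from limma), and *Inha* and *Fshr* were not (0.115 and 0.0547). The other 4 were not called, *Cyp19a1* at -0.54 (SE 0.45), *Kitl* at -0.11 (0.54), *Hsd17b1* at 0.69 (0.65) and *Nr5a2* at 1.13 (0.60), with adjusted p from limma between 0.269 and 0.919. *Cyp19a1*, the most abundant of them, had 62.0, 19.0 and 32.0 FPKM in WT polysomes and 14.6, 23.5 and 34.5 FPKM in KO polysomes. Below the filter, *Cyp11a1* had 0.838, 0.702 and 0.644 FPKM in WT polysomes and 0.0971, 0 and 0 FPKM in KO polysomes, and *Ptgs2* had 0.121, 0.234 and 0.127 FPKM against 0 in all 3 KO polysome libraries. With KO polysome replicate 2 left out, limma called 0 of the 4 granulosa markers then tested, where 4.38% of all genes were called. *Inha*, which encodes the inhibin alpha subunit, had 9.58, 0 and 8.11 FPKM in WT polysomes and 51.4, 39.4 and 39.5 FPKM in KO polysomes. Its change was 3.27 (SE 0.80, limma adjusted p = 0.0364), and ran from 2.17 to 3.87 in the 6 fits that leave out 1 library. The call of *Inha* was lost without KO polysome replicate 1, 2 or 3 (3.14, 3.33 and 3.33, adjusted p from limma 0.107, 0.0981 and 0.0962), with a pseudocount of 0.1 and with no intensity trend (adjusted p from limma 0.132 and 0.0909). *Inhba*, the gene of an activin subunit, had 0.252, 0 and 0 FPKM in WT polysomes and 3.72, 8.27 and 11.9 FPKM in KO polysomes. *Fshr*, the FSH receptor gene, had 0, 0 and 0.700 FPKM in WT polysomes and 4.36, 3.14 and 6.74 FPKM in KO polysomes. With a KO library left out, *Inhba* and *Fshr* no longer met the filter and were not tested, and the call of *Fshr* was lost without WT polysome replicate 1 or 2 (2.09 in both, adjusted p from limma 0.0505 and 0.0502). Fewer cells of a type and less RNA per cell cannot be told apart in these pooled samples.

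In the RNP pool *Oog2* rose 1.57-fold, *Oog4* rose 1.49-fold and *Oog3* rose 1.22-fold in the KO. KO RNP libraries had 297, 370.3 and 274 FPKM of *Oog2*, with a mean of 314 ± 50.5 against 200.2 ± 4.25 in WT (SD, n = 3). KO RNP libraries had 704, 753 and 648 FPKM of *Oog4*, with a mean of 702 ± 52.7 against 472 ± 16.7 in WT (SD, n = 3). KO RNP libraries had 1338, 1319.9 and 1214 FPKM of *Oog3*, with a mean of 1290.5 ± 67.0 against 1061 ± 22.2 in WT (SD, n = 3). Every KO library lay above every WT library for the 3 genes, and replicate spread was wider in the KO than in WT for each.

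*Oog4* changed by 0.57 (SE 0.08, limma adjusted p = 0.00138), *Oog2* by 0.63 (SE 0.12, limma adjusted p = 0.00573) and *Oog3* by 0.28 (SE 0.06, limma adjusted p = 0.0123). All 3 oogenesins tested were called, where 20.7% of the 9931 genes tested were called, and the genotypes did not overlap for 3 of the 3, against 39.2% of all genes. The call of *Oog3* was lost without KO RNP replicate 1 (0.25, adjusted p = 0.0594 from limma), without KO RNP replicate 2 (0.26, adjusted p = 0.0510 from limma) and with quantile normalization (0.18, adjusted p = 0.0791 from limma). Without the intensity trend none of the 3 was called in RNP, where 15.2% of all genes were (limma adjusted p = 0.0659 for *Oog2*, 0.264 for *Oog3* and 0.0615 for *Oog4*). *Inha* was the only 1 of the 4 granulosa markers tested in RNP to be called higher in the KO. *Inha* met the filter there through KO libraries alone, so this count is not set against the share of all genes. With a KO RNP library left out, *Inha* no longer met the filter and was not tested. The part of *Inha* in the result was not tested.

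Within the KO, the order of the pools was that seen in WT. *Oog2* was 2.19-fold and *Oog4* 1.87-fold higher in KO polysomes than in KO RNP, with all 3 polysome libraries of each above all 3 RNP libraries. *Oog3* had a polysome over RNP ratio of 0.844, with every KO polysome library below every KO RNP library. *Oog2* was higher in polysomes by 1.14 (SE 0.12, limma adjusted p = 0.000143) and *Oog4* by 0.89 (SE 0.12, limma adjusted p = 0.000482). *Oog3* changed by -0.25 (SE 0.10, limma adjusted p = 0.0809), and was called when libraries were rescaled to the same median (-0.27, adjusted p = 0.0364 from limma) or quantile normalized (-0.56, adjusted p = 0.000856 from limma). With 1 library left out it ran from -0.31 to -0.15, not called. Thus 2 of the 3 oogenesins were called, where 29.2% of the 9851 genes tested were called, and the pools did not overlap for 3 of the 3, against 44.2% of all genes. Without KO polysome replicate 2, the ratios of group means were 2.19, 1.77 and 0.810 for *Oog2*, *Oog4* and *Oog3*, *Oog2* was higher by 1.13 and *Oog4* by 0.82 (adjusted p from limma 0.000879 and 0.00229), and *Oog3* changed by -0.31 (adjusted p from limma 0.0637). The share of all genes called was then 26.9% of 9561, and the pools did not overlap for 3 of the 3 oogenesins, against 53.7% of all genes. *Inha* and *Inhba* were also called higher in KO polysomes than in KO RNP (2.57 and 2.35, limma adjusted p = 0.000422 and 0.0151). The call of *Inhba* was lost without KO RNP replicate 1 or 2. *Cyp19a1*, *Fshr*, *Kitl* and *Nr5a2* were not called there (-0.39, -0.99, 0.26 and 0.14). In WT *Fshr*, which met the filter through RNP alone, was called lower in polysomes (-2.33), and *Cyp19a1*, *Kitl* and *Nr5a2* were not called. The part of these granulosa markers was not tested.

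Whether the genotype effect differed between the pools was tested as an interaction over all 12 libraries. The polysome-to-RNP ratio of *Oog2* changed by 0.06 (95% interval -0.27 to 0.40) in the KO, that of *Oog3* by -0.06 (-0.39 to 0.26) and that of *Oog4* by -0.10 (-0.43 to 0.22). By limma 0 of the 3 oogenesins passed (adjusted p = 0.919, 0.915 and 0.854), 0 had an unadjusted p under 0.05, and 0.237% of the 10949 genes tested passed, with 1220 genes at an unadjusted p under 0.05. The intervals reached down to -0.43, for *Oog4*, and up to 0.40, for *Oog2*, so differences inside the interval of each member are not excluded by these libraries. Without KO polysome replicate 2 the changes were 0.06 for *Oog2*, -0.12 for *Oog3* and -0.18 for *Oog4*, and none passed (adjusted p = 0.944, 0.865 and 0.758 from limma), where 0.0926% of 10796 genes passed.

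The make-up of the family differed between the pools. *Oog3* made up 60.9% to 61.4% of the summed FPKM of the 4 genes in WT RNP and 38.8% to 42.6% in WT polysomes. *Oog3* took 54.0% to 57.2% of the KO RNP sum and 35.1% to 35.5% in KO polysomes. *Oog3* was thus the leading member in all 6 RNP libraries, and *Oog4* led in all 3 KO polysome libraries. For *Oog4* the shares were 26.9% to 27.7% (WT RNP), 30.1% to 30.8% (KO RNP), 39.2% to 41.8% (WT polysomes) and 40.7% to 43.8% (KO polysomes). *Oog2* took 11.1% to 11.98%, 12.7% to 15.2%, 17.7% to 19.4% and 20.7% to 24.1% in the same order of groups. The KO polysome shares without replicate 2 were 35.1% to 35.3% for *Oog3*, 40.7% to 42.7% for *Oog4* and 22.2% to 24.1% for *Oog2*. *Oog3* and *Oog4* did not differ beyond their spread in WT polysomes, with means of 938 ± 132 and 943 ± 61.5 FPKM (SD, n = 3).

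**Figure D3:**
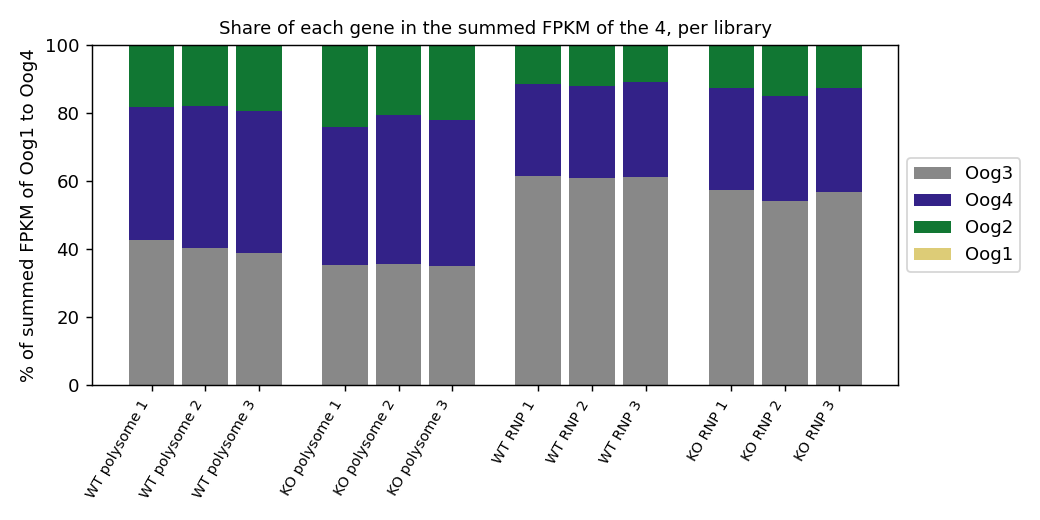
Share of *Oog3*, *Oog4*, *Oog2* and *Oog1* in the summed FPKM of the 4 genes, with 1 bar per library that adds up to 100%. The share of *Oog3* lies between 54.0% and 61.4% in the RNP libraries and between 35.1% and 42.6% in the polysome libraries, and that of *Oog1* is at most 0.495%.

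Ratios of 2 members within a library do not depend on the scaling of that library. The log2 ratio of *Oog4* over *Oog3* had a mean of 0.02 for WT polysomes, -1.17 for WT RNP, 0.26 for KO polysomes and -0.88 for KO RNP. The log2 ratio of *Oog2* over *Oog3* had means of -1.14, -2.40, -0.66 and -2.05 in the same order. Both ratios were higher in polysomes than in RNP and higher in the KO than in WT, with no overlap of libraries in any of these 8 comparisons. Both share *Oog3* and rest on the same values as the changes above, so the 8 are not separate results. How often other pairs of genes are apart was not tested. The log2 ratio of *Oog2* over *Oog4* had means of -1.16, -1.23, -0.93 and -1.17, and its groups were apart only between KO and WT polysomes, among the 4 comparisons made. In the 9 comparisons without overlap the exact two-sided permutation p was 0.1, the smallest that 3 against 3 libraries allow, and 0.133 after Benjamini-Hochberg adjustment over the 12 comparisons. The KO polysome means without replicate 2 were 0.25 for *Oog4* over *Oog3*, -0.60 for *Oog2* over *Oog3* and -0.85 for *Oog2* over *Oog4*. The KO polysome libraries then lay above the WT polysome and KO RNP libraries for all 3 ratios, so that *Oog2* over *Oog4* no longer overlapped between the KO pools. The exact two-sided permutation p of these 6 comparisons was 0.2, the smallest that 2 against 3 libraries allow. These ratios were examined after the values of the members were known.

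Genes with the most similar pattern were sought among 6678 expressed genes by Pearson correlation of log2(FPKM + 1) over the 12 libraries, which fall into 4 groups, so the coefficients are descriptions. *Oog2* was closest to *C87977* (r = 0.993), another PRAME-like gene, then to *Speer5-ps1* and *Imp4* (both 0.987), and stood at 0.984 with *Oog4*. *Oog4* was closest to *Ube2d3* (0.993), a ubiquitin-conjugating enzyme gene, then to *Nlrp9a* (0.991) and *C87977* (0.990). *Oog3* was closest to *4933434E20Rik* (0.949), *Rps20* (0.941) and *Tgfb3* (0.939), and had -0.10 with *Oog2* and -0.07 with *Oog4*. *Oog1* was closest to *Rnf122*, *Tfb1m* and *Cog3* (0.869, 0.863 and 0.856), each of which, like *Oog1*, had its highest value in WT polysome replicate 1. Without KO polysome replicate 2 the 3 closest genes of *Oog2*, *Oog3* and *Oog4* and their order were the same, *Oog3* had -0.19 with *Oog2* and -0.18 with *Oog4*, and *Mybl2* (0.905) was the closest to *Oog1*, ahead of *Rnf122* and *Tfb1m*.

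The rest of the PRAME family gives the setting of these genes. The list held 32 further genes, of which 16 had a mean of at least 1 FPKM and 7, *Prame* itself among them, were listed at 0 in all 12 libraries. *Gm2042* was not on this list, so the counts and medians below leave it out. *Gm13084* was the most abundant in all 6 polysome libraries, at 1922 to 4243 FPKM, and in KO RNP replicate 3, at 1701 FPKM. *Gm10436* was the most abundant in the other 5 RNP libraries, at 1099 to 1936 FPKM. Many of these genes are close copies of each other, so the division of reads among them is uncertain. In WT the polysome against RNP change was called higher for 5 of 15 genes tested (*C87977*, *Gm13023*, *Gm13084*, *Gm13125* and *Pramef12*) and lower for 2 (*C87499* and *Gm10436*), where 7.97% of all genes tested were called higher and 6.72% lower. The call of *Gm13125* (0.48, limma adjusted p = 0.0492) was lost without each WT library other than WT polysome replicate 1 (0.38 to 0.48, adjusted p from limma up to 0.130). That of *C87499* was lost without WT RNP replicate 1, 2 or 3 (-0.80, -0.78 and -0.83, adjusted p from limma up to 0.0681). Without the intensity trend 2 were called higher and 0 lower, with 6 at an unadjusted p under 0.05 in limma, where 4.65% and 2.96% of all genes were called. The changes ran from -1.20 for *Gm13083* (SE 0.83, not called) to 1.36 for *Pramef12* (SE 0.11), and *C87499* was the lowest of those called, at -0.80 (SE 0.18). Of the 15 genes, 2 lay above *Oog2* and *Oog4*, and 10 lay above *Oog3*. The median change was 0.06, against -0.09 for all genes tested. In the KO the counts were 5 higher and 3 lower of 16, where 15.5% and 13.8% of all genes were called, with a median of 0.08 against -0.04. Without the intensity trend they were 3 and 3, where 13.9% and 11.5% of all genes were called. Leaving out KO polysome replicate 2 gave 4 higher and 4 lower, where 13.5% and 13.4% of all genes were called, with a median of -0.05 against -0.04.

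Between genotypes, 4 of 16 PRAME genes tested in polysomes were called higher in the KO and 0 lower, namely *C87977*, *Gm13084*, *Gm13103* and *Pramef12*, with a median change of 0.42 against 0.10 for all genes (6 had an unadjusted p under 0.05 in limma). Over all genes tested, 5.64% were called higher and 4.73% lower. Without KO polysome replicate 2, 3 of 14 were called higher, where 1.64% of all genes were, with a median of 0.44 against 0.09. The call of *Gm13103* (0.62, limma adjusted p = 0.0240) was lost without WT polysome replicate 2, KO replicate 2 or KO replicate 3 (0.53, 0.55 and 0.58, adjusted p from limma up to 0.0993). Without the intensity trend limma called 0 of 16 in polysomes, with 5 at an unadjusted p under 0.05, and called 2.89% of all genes higher and 2.43% lower. In RNP 9 of 15 were called higher and 0 lower, with a median of 0.54 against 0.05 (11 had an unadjusted p under 0.05 in limma), where 10.5% of all genes were called higher and 10.2% lower. Dropping the intensity trend left 5 of 15 called higher, where 7.11% of all genes were. The RNP call of *Gm13023* (0.27, limma adjusted p = 0.0290) was lost without WT RNP replicate 2 or 3 or KO RNP replicate 1 or 2 (0.21 to 0.27, adjusted p from limma up to 0.107). *Gm13084*, which shares sequence with *Oog2*, rose by 0.84 (SE 0.13) in polysomes and 0.67 (0.06) in RNP, beside 0.70 and 0.63 for *Oog2*, and by 0.80 in polysomes without KO polysome replicate 2. *Gm10436*, which shares sequence with *Oog1*, rose by 0.63 (SE 0.09) in RNP, where *Gm2042* had 0.01 (0.11). For the polysome-to-RNP ratio limma called 0 of 16, with 2 at an unadjusted p under 0.05 and a median of -0.07 against 0.04, where 0.237% of all genes were called. It again called 0 of 16 without KO polysome replicate 2, with 2 at an unadjusted p under 0.05 and a median of -0.13 against 0.03, where 0.0926% of all genes were called.

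**Figure D4:**
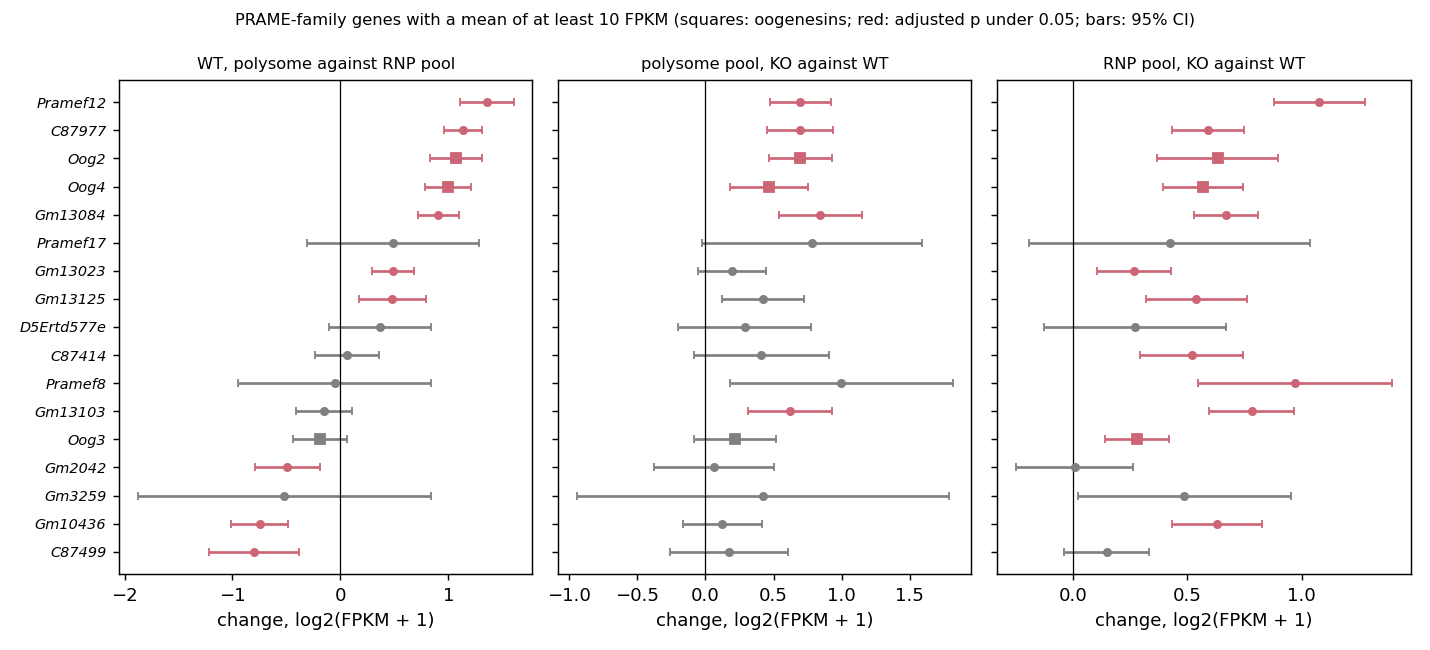
Changes of the 17 PRAME-family genes whose mean reached 10 FPKM, on the log2(FPKM + 1) scale with 95% intervals, for the WT pools and for KO against WT in polysomes and in RNP. Squares mark *Oog2*, *Oog3* and *Oog4*, and red marks an adjusted p from limma under 0.05. In the WT pools the genes run from -0.80 for *C87499* to 1.36 for *Pramef12*, with *Oog2* at 1.07, *Oog4* at 1.00 and *Oog3* at -0.19.

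The ligase and signalling partners known for PRAME and OOG1 were read from lists chosen by gene name. Of the 4 core genes of the CUL2 ligase, *Cul2*, *Rbx1*, *Tceb1* and *Tceb2*, limma called 0 between KO and WT in either pool, where 10.4% of all genes were called in polysomes and 20.7% in RNP, and 0 had an unadjusted p under 0.05. The polysome counts were again 0 and 0 without KO polysome replicate 2, where 4.38% of all genes were called. *Tceb1*, which encodes elongin C, had 1014, 931 and 1045 FPKM in WT polysomes and 518, 626 and 519 FPKM in WT RNP, and was called higher in polysomes in both genotypes (0.85 in WT and 0.60 in the KO), as was *Tceb2* (1.82 and 1.66). *Rbx1* changed the other way, by -1.02 (SE 0.43) in WT and -0.54 (0.23) in the KO, and *Cul2* by 0.00 (0.57) and 0.23 (0.36), and limma called neither (adjusted p = 0.159 and 0.115 for *Rbx1*, 0.998 and 0.677 for *Cul2*), although the unadjusted p of *Rbx1* was 0.0444 in WT and 0.0448 in the KO. The changes in the KO without KO polysome replicate 2 were 0.51 for *Tceb1* and 1.57 for *Tceb2* (adjusted p from limma 0.0503 and 0.0183), which ended the call of *Tceb1* there, and were -0.51 for *Rbx1* and -0.07 for *Cul2*, not called. That call was also lost without KO RNP replicate 2 (0.49, adjusted p = 0.0589 from limma), and without the intensity trend *Tceb1* was called in neither genotype (adjusted p from limma 0.0682 in WT and 0.0913 in the KO). *Cul2* itself was low, at 0.643, 1.43 and 4.73 FPKM in WT polysomes. Of 6 Ras and Ral genes, 5 were tested, and *Ralb* did not pass the filter. *Hras* had 17.6, 12.6 and 13.3 FPKM in WT polysomes and 5.29, 4.80 and 6.02 FPKM in KO polysomes, a change of -1.28 (SE 0.34, limma adjusted p = 0.0493). *Ralgds*, the exchange factor for Ral, had 15.5, 17.7 and 18.4 FPKM in WT RNP and 11.4, 8.57 and 9.75 FPKM in KO RNP, a change of -0.75 (SE 0.22, limma adjusted p = 0.0448). Both calls were lost in each of the 6 fits that leave out 1 library (adjusted p from limma up to 0.152 and 0.148). The remaining Ras and Ral genes were not called between genotypes. In polysomes without KO replicate 2, limma called 0 of the 5, where 4.38% of all genes were called, and *Hras* changed by -1.21 (adjusted p = 0.152 from limma). Between the KO pools 2 of the 5 were called lower in polysomes, where 13.8% of all genes were, *Hras* at -1.53 (SE 0.23, limma adjusted p = 0.00120) and *Ralgds* at -1.17 (SE 0.28, limma adjusted p = 0.0122). The call of *Hras* held in the 6 fits that leave out 1 library, and that of *Ralgds* was lost without KO RNP replicate 1 (-1.08, adjusted p = 0.0637 from limma). Leaving out KO polysome replicate 2 gave -1.46 and -1.14 (adjusted p from limma 0.00348 and 0.0259). Between the WT pools limma called 0 of the 5, where 14.7% of all genes were called, with *Hras* at -0.15 (SE 0.34, adjusted p = 0.814) and *Ralgds* at -1.50 (SE 0.48, adjusted p = 0.0723). For the polysome-to-RNP ratio limma called 0 of the 5, where 0.237% of all genes were called, and *Hras* changed by -1.38 (SE 0.40, adjusted p = 0.199 from limma).

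The depth behind these values was estimated from the spacing of the lowest values in each library, since FPKM holds no counts. On the assumption that the effective length of a gene is its annotated length less 200 bases, a single library held about 2158.5 to 7099 fragments of *Oog2*, 8861 to 16621 of *Oog3* and 5420 to 13039 of *Oog4*. The spacing was selected after first estimates had been seen, so these numbers are approximate. The counting error of a single value would then be 1.19% to 2.15% for *Oog2*, 0.776% to 1.06% for *Oog3* and 0.876% to 1.36% for *Oog4*, which covers counting only and not amplification.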

How the data were processed

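RNA of the polysome and RNP pools was measured in 12 libraries, 3 of each pool and genotype, grouped by the labels. The authors deposited FPKM per gene, calculated on mm10 with TopHat2 2.0.13 and Cufflinks 2.2.1 according to the submitters' processing notes. Those notes also name Cuffnorm and Cuffdiff. The deposited table also holds the authors' own comparisons between groups and libraries, which were not used. The members and lists were chosen with earlier results of these data known.

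Tests were linear models in limma 3.58.1 (R 4.3.3) on log2(FPKM + 1), moderated by empirical Bayes with an intensity trend. A gene was tested where 3 or more of the compared libraries reached 1 FPKM, and p-values were adjusted by Benjamini-Hochberg over all genes tested, at 0.05. Such changes understate those of low genes. The polysome-to-RNP ratio was the interaction of genotype and pool. Single genes and ratios of members were also given exact two-sided permutation tests. Named genes were the 4 members, *Lsm14b*, *Lsm14a*, PRAME-family genes with a call or a mean of 1 FPKM or more, CUL2, Ras and Ral genes, cell type markers, and for each member the 3 genes of highest correlation among those whose mean reached 5 FPKM. PRAME-family genes were named from the RefSeq table, where 32 of 48 matched the table. *Gm2042*, its sum with *Oog1*, the ratios of members, the motifs, their 120-base window and the 90 bases that end with TATATA, and the spacing behind the depth estimate were chosen after values or sequences were seen. Transcript models came from GENCODE M21 and promoters from RefSeq.

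Alternatives were other pseudocounts and filters, 2 rescalings, a replicate block, no intensity trend, and each library left out in turn. The fits were also run on simulated data, and no result given here rests on that. Python 3.11.15, pandas 2.3.3, numpy 2.4.6, scipy 1.17.1 and matplotlib 3.10.9 were used.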

Additional observations from a re-analysis of the deposited data

How the results depend on the processing

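Changes of the oogenesins and counts of genes called were recomputed under the alternatives, 304 values in all, and 258 stayed the same. For a change this means the same direction and side of the threshold, also where it was called in neither fit. For a count it means a number close to that of the main fit. For KO against WT polysomes, *Oog4* was no longer called with a pseudocount of 0.1 (0.47, adjusted p = 0.0639 from limma), with no filter (0.47, 0.132) or with no intensity trend (0.47, 0.269), and *Oog2* was not called with no trend (0.70, 0.105). Over the fits that leave out 1 library, *Oog4* ran from 0.39 to 0.60. For KO against WT RNP, *Oog3* was not called with no filter (0.28, adjusted p = 0.0548 from limma), quantile normalization (0.18, 0.0791) or no trend (0.28, 0.264), and ran from 0.25 to 0.32 with 1 library left out. With no trend *Oog2* (0.63, 0.0659) and *Oog4* (0.57, 0.0615) were not called there either. *Oog3* became called between the WT pools with quantile normalization (-0.53), and between the KO pools with rescaling (-0.27) or quantile normalization (-0.56). The cause was not tested.

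Genes called in KO against WT polysomes numbered 989, and 545 with no filter, 508 with no trend and 383 to 790 with 1 library left out. In RNP they numbered 2057, and 1255 to 1911 with 1 library left out. Between the WT pools they numbered 1406, and 728 with no trend and 780 to 1212 with 1 library left out. For the ratio they numbered 26, and 6 with no trend and 0 to 46 with 1 library left out. Its changes then ran from -0.028 to 0.19 for *Oog2*, -0.16 to 0.038 for *Oog3* and -0.18 to 0.027 for *Oog4*, none called.

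The summed row of *Oog1* and *Gm2042*, formed after seeing the data, changed sign with quantile normalization between genotypes in polysomes (-0.015) and in RNP (-0.15), and with rescaling in the ratio (-0.0063). With 1 library left out it ran from -0.090 to 0.28 in polysomes, -0.12 to 0.087 in RNP and -0.10 to 0.28 in the ratio. Between the KO pools it then ran from -0.57 to -0.20. None of these was called. Between the WT pools (-0.48) it was not called with no filter (adjusted p = 0.0961 from limma), no trend (0.235) or in 5 of the 6 fits with 1 library left out. It was called between the KO pools with quantile normalization (-0.57).

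Replicate numbers are shared between groups, but same-numbered libraries did not deviate together (correlations from -0.0207 to 0.0255 across 10949 genes). With the number as a block, *Oog4* in polysomes was not called (0.47, adjusted p = 0.0835 from limma), the ratio had 11 genes called, the WT pool call of the summed row was lost (-0.48, 0.0563), and no other call of *Oog2*, *Oog3* or *Oog4* changed. The fits with the block called 672, 1799, 1165 and 2720 genes in the polysome, RNP, WT pool and KO pool comparisons.

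With 3 libraries a group, a single library decides the calls of *Oog4* in polysomes and of *Oog3* in RNP. FPKM is relative to each library, so a change in total RNA per oocyte would not be seen. Reads shared with near-identical copies leave *Oog1* uncertain and touch *Oog2* and *Oog3*.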
